A study of Homo sapiens with 6 samples.

Results

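Receptor tyrosine kinases are cell surface proteins that bind a growth factor or another extracellular ligand and then phosphorylate themselves and their partners on tyrosine. Ligand binding usually joins receptors in pairs, and the phosphorylated tails recruit adaptor proteins that carry the signal to the RAS-MAP kinase and PI3 kinase pathways. In melanoma, several of them, among them AXL, EGFR, PDGFRB and MET, are known for sustaining growth when BRAF or MEK is inhibited, and ERBB3 for its response to neuregulin.

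The measurements came from M14, an established human cell line that the labels give as melanoma, grown as adherent conventional cultures (2D) or as non-adherent melanospheres (3D), with 3 libraries each. The labels name no genotype change or treatment for either culture, and they state as the purpose a comparison of the cell populations in the 2 cultures, including putative cancer stem cells. The receptors were taken by name from a list of 38 that was drawn up with earlier results of these data known, and 34 of them had a row among the 26748 genes of the table. PDGFRA, NTRK3, RET and MUSK were not analysed here. Of the 34, 22 had a mean of at least 10 normalised counts (reads divided by the library's size factor) over the 6 libraries and were tested, and 12 lay near the floor below that mean.

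Depth was 16567763 to 19954987 reads per library. Whether replicates came from separate cultures is not stated in the labels, and p-values therefore cover only the spread among these 6 libraries, part or all of which may be technical. Library 2D replicate 3 stood apart from the other 2D libraries (Pearson r of log2 values across genes 0.943 to 0.945, against 0.984 between replicates 1 and 2), and on the first principal component it lay at -24.7, against -94.7 and -84.4 for the other 2D libraries and 59.3 to 73.9 for the 3D libraries. In 3D, replicate 2 was the more distant library (r 0.966 to 0.967, against 0.987 between replicates 1 and 3). Reads of mitochondrial genes made up 0.528%, 1.01% and 1.49% of the 2D libraries and 4.28% to 5.76% of the 3D libraries, and the part of this in the results was not tested. Because the libraries are bulk RNA, fewer cells of a type and less RNA per cell cannot be told apart.

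Of the melanocyte lineage markers that would define the line, MLANA (10.2 ± 6.34 in 2D and 8.26 ± 5.76 in 3D, mean ± SD of normalised counts, n = 3 each), TYR, TYRP1, SOX10 and S100B had means under 10 over the 6 libraries. MITF was measured at 1131 ± 215 in 2D and 288 ± 19.0 in 3D (log2 change -1.95, limma adjusted p = 0.00077), and DCT at 70.0 ± 42.4 and 0.619 ± 1.07 (adjusted p = 0.0014). S100A1 was at 17.9 ± 13.2 in 2D and 76.8 ± 7.46 in 3D (log2 change 2.32, adjusted p = 0.02), PMEL at 434 ± 279.7 and 1071 ± 398 (adjusted p = 0.053) and GPR143 at 69.2 ± 34.6 and 186 ± 216 (adjusted p = 0.4). Of the 5 melanocyte markers tested, 1 was called higher and 2 lower, with a median log2 change of 0.91. The S100A1 call was lost when 2D replicate 2, 3D replicate 1 or 3D replicate 3 was left out (adjusted p up to 0.085). The 10 markers summed to 1688 to 1937 in 2D and 1414 to 1807 in 3D. The epithelial keratins KRT8 (24771 ± 17046 in 2D, 24926 ± 3485 in 3D) and KRT18 (11234 ± 3264 and 10688 ± 2148) were far above the melanocyte markers in both cultures. The melanocyte markers were thus partly near the floor and partly detected in both cultures, as with MITF and PMEL. The identity of the line was not tested, and these levels alone do not settle it. The epithelial sum of 7 genes with a row ran from 25956 to 66394 in 2D, highest in replicate 3, and from 36236 to 47403 in 3D. Of the 6 epithelial markers tested, 1 was called higher and 2 lower, with a median log2 change of -0.26. The share called was 50%, against 24.1% of all tested genes. Fibroblast markers summed to 1981 to 6011 in 2D and 8287 to 11966 in 3D, nearly all from COL1A1 and COL3A1, with DCN, THY1 and FAP near 0. Endothelial markers summed to 1408 to 2908 in 2D and 2455 to 2723 in 3D. The 3 leukocyte markers with a row (PTPRC, CD14, CD68) summed to under 10 in every library (1.91 to 5.34 in 2D and 4.64 to 7.23 in 3D), and 70.6% of the 75-base exon windows of CD68 also occur in another gene, so its reads may not have been counted. The part of these marker levels in the receptor results was not tested.

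Promoter sequences are shown for 3 receptors that the results turn on: MET, with the smallest p among the receptors lower in 3D, ROR2, the other receptor called in every fit with a library left out, and MST1R, the receptor called higher. Each is RefSeq's window of 250 bases before to 50 after the gene's start (GRCh38.p14), printed 5′ to 3′ on the gene's strand. Capitals mark exact matches, on either strand and with overlaps allowed, to any of 5 searched motifs: the AP-1 sites TGACTCA and TGAGTCA, the TEAD site GGAATG, the E-boxes CACGTG and CATGTG, and the GC box GGGCGG. The MET window is chr7:116671946-116672245 on the plus strand, the ROR2 window chr9:91950179-91950478 on the minus strand, and the MST1R window chr3:49903824-49904123 on the minus strand.
MET: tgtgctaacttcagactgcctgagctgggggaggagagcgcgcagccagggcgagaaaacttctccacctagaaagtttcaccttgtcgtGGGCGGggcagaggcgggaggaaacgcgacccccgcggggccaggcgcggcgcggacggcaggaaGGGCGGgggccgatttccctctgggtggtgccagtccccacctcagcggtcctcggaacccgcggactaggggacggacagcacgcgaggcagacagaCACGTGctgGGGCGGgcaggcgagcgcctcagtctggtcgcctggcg
ROR2: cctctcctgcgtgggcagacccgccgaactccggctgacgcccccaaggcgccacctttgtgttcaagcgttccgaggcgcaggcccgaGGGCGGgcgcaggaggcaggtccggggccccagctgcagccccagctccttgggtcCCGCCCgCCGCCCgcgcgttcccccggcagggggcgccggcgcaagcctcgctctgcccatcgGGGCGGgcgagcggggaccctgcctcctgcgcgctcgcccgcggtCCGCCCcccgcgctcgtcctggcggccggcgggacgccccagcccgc
MST1R: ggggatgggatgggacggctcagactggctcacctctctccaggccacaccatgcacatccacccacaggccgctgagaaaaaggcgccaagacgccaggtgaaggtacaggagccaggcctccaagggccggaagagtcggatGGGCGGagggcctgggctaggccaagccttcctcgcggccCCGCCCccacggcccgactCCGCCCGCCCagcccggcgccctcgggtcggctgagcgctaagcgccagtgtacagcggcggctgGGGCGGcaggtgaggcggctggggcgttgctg
GC content was 69.3% in the MET window, 79.7% in that of ROR2 and 71.3% in that of MST1R. The MET window held the E-box CACGTG at bases 254 to 259 and 3 GC boxes, and the windows of ROR2 and MST1R each held 5 GC boxes and no other searched motif. Among the 31 receptors with a promoter in the RefSeq table, 23 held a GC box (74.2%), against 44.6% of all 27305 promoters of the same length. CACGTG was found in 1 of the 31, MET, against 7.43% of all promoters, CATGTG in 4 of 31 against 11.2%, the AP-1 site in 2 of 31 against 4.92%, and the TEAD site in 2 of 31 against 14.05%. These matches describe letters in the windows and are not evidence of binding.

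In the comparison of 3D with 2D, 8 of the 22 tested receptors passed the threshold: MST1R was higher in melanospheres, and MET, ROR2, AXL, FGFR2, ERBB2, ERBB3 and ROR1 were lower. Calls were made by limma on log2(normalised count + 1) at a Benjamini-Hochberg adjusted p under 0.05 over all 15598 tested genes, of which 24.1% passed in either direction, 12.5% higher and 11.6% lower. The share among the receptors was 36.4%, with 1 of 22 higher and 7 of 22 lower. The median log2 change was -0.22 over the 22 receptors and -0.02 over all tested genes. For 9 receptors every 3D library lay below every 2D library (the 7 called lower, FGFR1 and RYK), against a background of 22.6% of tested genes, and for 3 every 3D library lay above (MST1R, MERTK and FLT4), against 20.5%. Equal library totals in place of the size factors moved the median of all genes from -0.02 to 0.11 and the split over all genes from 1950 higher and 1816 lower to 2392 and 1253, and among the receptors it gave 3 higher (FGFR4, FLT4, MST1R; 15.3% of all genes) and 5 lower (8.03% of all genes), with ERBB3 and ROR1 no longer called.

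**Figure D1:**
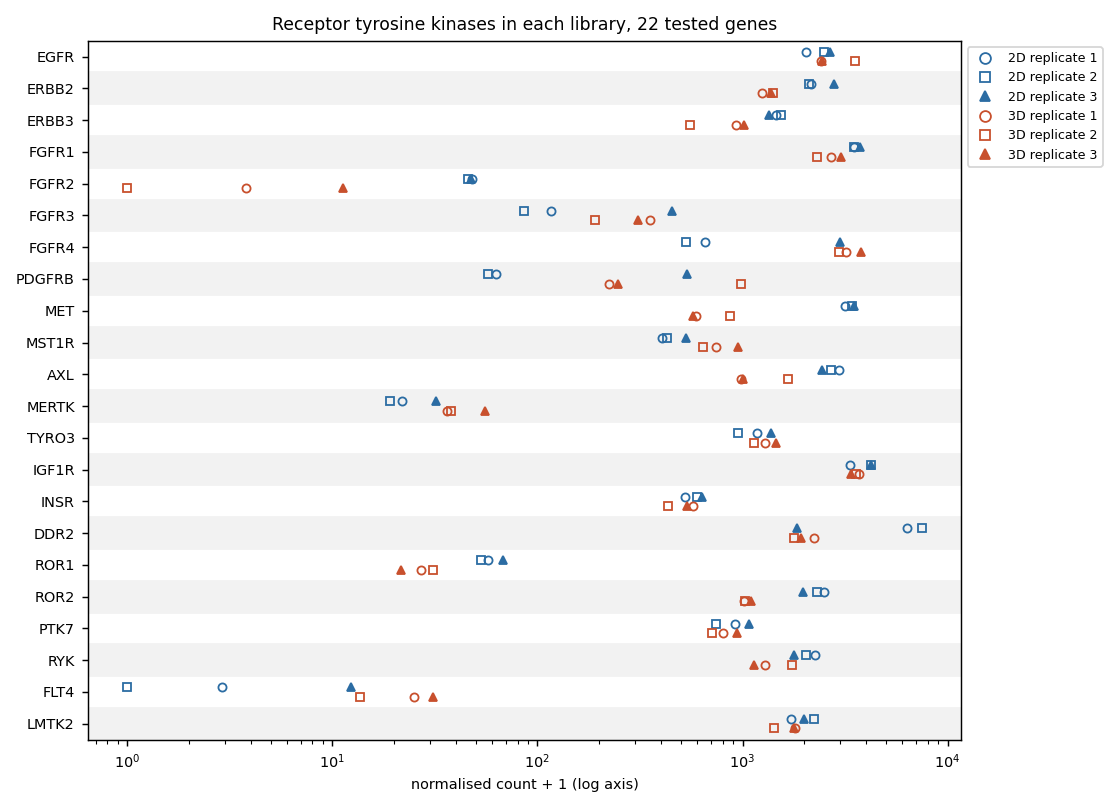
Normalised count plus 1 (log axis) of the 22 tested receptors in each of the 6 libraries, 2D in blue and 3D in orange, with a symbol for each replicate. MET lies between 3168 and 3485 in 2D and between 570 and 869.5 in 3D, whereas FGFR4, PDGFRB and DDR2 in 2D replicate 3 lie within the range of the 3D libraries.

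**Figure D2:**
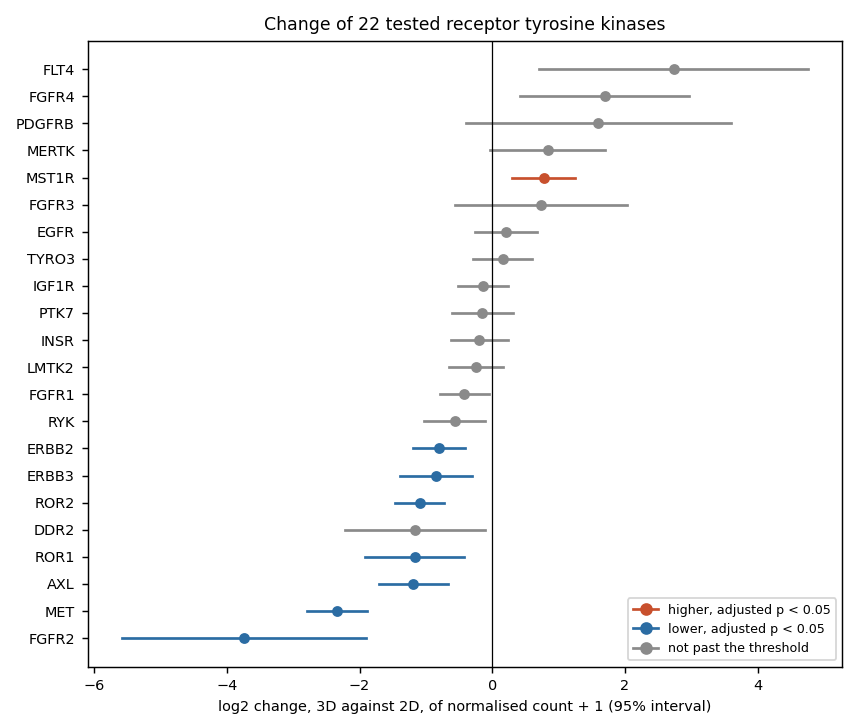
Estimated log2 change of each tested receptor, 3D against 2D, with its 95% confidence interval from limma, ordered by size and coloured by the call. MST1R is the receptor called higher, and 7 receptors, from ERBB2 to FGFR2, are called lower.

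MET, the receptor for hepatocyte growth factor (ENSG00000105976, GENCODE 29 on GRCh38, chr7:116672390-116798386, plus strand), had the smallest p among the receptors. It was measured at 3168, 3436 and 3485 normalised counts in the 2D libraries and at 589, 869.5 and 569.8 in the 3D libraries. The cultures were far apart, and 2D replicate 3 sat with the other 2D libraries. Its mean was 3363 ± 171 in 2D and 676 ± 168 in 3D (SD, n = 3 each), 4.97 times as high in 2D, a log2 change of -2.34 (SE 0.20, 95% confidence interval -2.79 to -1.89, limma adjusted p = 0.00045). The call held with each library left out in turn, with adjusted p from 8.7e-05 to 0.0053. Its ligand gene HGF was not analysed here.

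MST1R, also called RON, is the other receptor of the MET family and binds macrophage-stimulating protein (ENSG00000164078, chr3:49887002-49903873, minus strand). It was measured at 402, 426 and 527 in the 2D libraries and at 745, 639 and 951 in the 3D libraries, so that it moved opposite to MET without overlap between the cultures. The mean rose from 452 ± 66.5 to 778 ± 159, 1.72 times as high in 3D (log2 change 0.77, SE 0.21, 95% confidence interval 0.29 to 1.25, limma adjusted p = 0.032). The call was kept when 2D replicate 3 (adjusted p = 0.0067) or 3D replicate 2 (0.032) was left out and was lost without any of the other 4 libraries, where adjusted p ran up to 0.13. Of its exon bases, 6.78% lie under a gene on the opposite strand, and the library kit does not keep strand, so reads of the pair cannot be told apart there. The ligand gene MST1 was at 176 ± 94.4 in 2D and 110.3 ± 39.5 in 3D (log2 change -0.55, adjusted p = 0.43), and 13.7% of its exon windows of 75 bases also occur in other genes.

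The TAM family binds GAS6 and PROS1 and takes part in clearing dying cells. AXL, its member best known from drug-tolerant melanoma (ENSG00000167601, chr19:41219203-41261766, plus strand), was measured at 2954, 2705 and 2429 in 2D and at 978, 1661 and 1005 in 3D. All 3D libraries were lower than all 2D libraries, with 3D replicate 2 nearest to 2D. The mean fell from 2696 ± 263 to 1215 ± 386, 2.22 times as high in 2D (log2 change -1.19, SE 0.23, 95% confidence interval -1.71 to -0.67, limma adjusted p = 0.0093). Without 3D replicate 3 the adjusted p was 0.052, and without any other library the call held. TYRO3 was measured at 1178, 947 and 1382 in 2D and at 1289, 1139 and 1461 in 3D, with overlapping cultures (log2 change 0.16, 95% confidence interval -0.28 to 0.60, adjusted p = 0.57). MERTK was low, at 18.1 to 30.8 in 2D and 35.3 to 54.7 in 3D (log2 change 0.84, adjusted p = 0.14), and it passed without 2D replicate 3 (1.05, adjusted p = 0.045). GAS6 was at 449 ± 199.8 and 565 ± 167 (log2 change 0.37, adjusted p = 0.45).

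The list holds 4 receptors that bind Wnt ligands or act beside Frizzled proteins. The ROR receptors respond to WNT5A, a ligand tied to invasive melanoma. ROR2 (ENSG00000169071, chr9:91563091-91950162, minus strand) was measured at 2484, 2311 and 1964 in 2D and at 1017, 1029 and 1105 in 3D. The 3D libraries lay close together and well under the 2D libraries. The mean fell from 2253 ± 265 to 1050.3 ± 47.4, 2.14 times as high in 2D (log2 change -1.09, SE 0.16, 95% confidence interval -1.46 to -0.73, limma adjusted p = 0.0035), and the call held with each library left out (adjusted p 0.00031 to 0.026). MET and ROR2 were the only receptors among the 22 called in all 6 of those fits.

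ROR1 (ENSG00000185483, chr1:63774022-64181498, plus strand) was far lower than ROR2, at 56.2, 52.3 and 66.8 in 2D and 26.0, 30.1 and 20.6 in 3D. Its libraries did not overlap between cultures, and the mean fell from 58.5 ± 7.51 to 25.6 ± 4.72 (log2 change -1.17, SE 0.33, limma adjusted p = 0.035). This call is less firm than that of ROR2: it held when 2D replicate 3 was left out (adjusted p = 0.032) or 3D replicate 2, and was lost without any of the other 4 libraries (up to 0.13), with equal library totals (0.052) and with no filter on low values (0.059). RYK, a receptor with an inactive kinase domain, was measured at 2253, 2044 and 1788 in 2D and 1285, 1738 and 1141 in 3D. The cultures did not overlap, but 3D replicate 2 lay just under the lowest 2D library, and the log2 change of -0.56 did not pass (95% confidence interval -1.02 to -0.11, adjusted p = 0.071). It passed without 3D replicate 2 (adjusted p = 0.034) and without 2D replicate 3 (0.024). PTK7, another receptor without kinase activity, was at 741 to 1069 in 2D and 711 to 939 in 3D (log2 change -0.15, 95% confidence interval -0.60 to 0.31, adjusted p = 0.61). WNT5A was at 772 ± 256 in 2D and 961 ± 263 in 3D (log2 change 0.32, adjusted p = 0.43).

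Within the EGF receptor family, ERBB2 and ERBB3 were lower in melanospheres and EGFR did not pass. ERBB2, which has no ligand of its own and signals as a partner (ENSG00000141736, chr17:39687914-39730426, plus strand), was measured at 2159.6, 2113 and 2789 in 2D and at 1238, 1401 and 1379 in 3D. The cultures did not overlap, and 2D replicate 3 was the highest library. The mean fell from 2354 ± 378 to 1339 ± 88.5 (log2 change -0.80, SE 0.17, 95% confidence interval -1.20 to -0.41, limma adjusted p = 0.014). The call was lost without 3D replicate 1 (adjusted p = 0.072) and without 3D replicate 3 (0.06), and 7.41% of its exon bases lie under a gene on the opposite strand.

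ERBB3, the neuregulin receptor that pairs with ERBB2 (ENSG00000065361, chr12:56076799-56103505, plus strand), was measured at 1458, 1531 and 1349.9 in 2D and at 923, 556 and 1019.9 in 3D. The lowest value was in 3D replicate 2. The mean fell from 1446 ± 91.1 to 833 ± 244 (log2 change -0.84, SE 0.24, 95% confidence interval -1.38 to -0.30, limma adjusted p = 0.036). It was called without 2D replicate 3 (adjusted p = 0.019) and lost without any other library (up to 0.11), and the log2 change of ERBB3 without 3D replicate 2 was -0.57. EGFR (ENSG00000146648, chr7:55019021-55211628, plus strand) was measured at 2040.5, 2503 and 2681 in 2D and at 2419.8, 3527 and 2445 in 3D. The cultures overlapped (log2 change 0.20, 95% confidence interval -0.26 to 0.67, adjusted p = 0.49).

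The ligands of this family did not move one way. TGFA, which binds EGFR, rose from 324 ± 10.7 to 599.9 ± 71.1 (log2 change 0.88, SE 0.18, limma adjusted p = 0.012, or 0.053 without 3D replicate 1). BTC, which binds EGFR and ERBB4, fell from 54.1 ± 36.1 to 5.5 ± 3.64 (log2 change -2.87, SE 0.73, adjusted p = 0.026). The BTC call held when 2D replicate 3 or 3D replicate 2 was left out and was lost without any of the other 4 libraries, with adjusted p up to 0.1. NRG1, the neuregulin that ERBB3 binds, was at 193 ± 83.6 and 273 ± 84.8 (log2 change 0.52, adjusted p = 0.31), and it passed without 2D replicate 3.

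The FGF receptors need heparan sulfate or Klotho proteins beside their ligands. FGFR2 (ENSG00000066468, chr10:121478334-121598458, minus strand) was measured at 46.7, 44.8 and 46.3 in 2D and at 2.78, 0 and 10.3 in 3D. The 2D libraries were nearly equal, and the 3D libraries held few or no reads. This rests on 136 reads in 2D and 13 in 3D, with means of 45.9 ± 0.975 and 4.37 ± 5.34, 10.5 times as high in 2D. The fitted log2 change of FGFR2 was -3.75 (SE 0.81, 95% confidence interval -5.58 to -1.91, limma adjusted p = 0.014), a value that depends on the pseudocount (-5.00 with 0.1 and -2.02 with 10). Without 2D replicate 1 the adjusted p was 0.051, and without any other library the call held.

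FGFR4 (ENSG00000160867, chr5:177086886-177098144, plus strand) was measured at 657, 528 and 2999 in 2D and at 3206, 2952 and 3776 in 3D. Replicates 1 and 2 of 2D were low, while 2D replicate 3 lay within the 3D range, so that the cultures overlapped. The means were 1395 ± 1391 and 3311 ± 422 (log2 change 1.70, SE 0.56, 95% confidence interval 0.43 to 2.97, adjusted p = 0.057), which did not pass. Without 2D replicate 3 the log2 change was 2.48 (adjusted p = 3.2e-05), and with equal library totals the adjusted p was 0.048. edgeR on the recovered reads gave an adjusted p of 0.13.

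FGFR1 was measured at 3479.6, 3492 and 3735 in 2D and at 2714, 2316 and 3022 in 3D. All 3D libraries were lower than all 2D libraries, but the log2 change of -0.42 did not pass (95% confidence interval -0.79 to -0.04, adjusted p = 0.094). FGFR3 was at 115, 85.4 and 454 in 2D and 354, 189 and 309.7 in 3D (log2 change 0.73, adjusted p = 0.37). Here 2D replicate 3 was the highest of all 6 libraries, and leaving it out gave a log2 change of 1.46 with an adjusted p of 0.005. FGF2, a ligand of the family, fell from 918 ± 340.2 to 419 ± 122 (log2 change -1.09, SE 0.33, limma adjusted p = 0.043). The FGF2 call was kept when 2D replicate 3 or 3D replicate 2 was left out and lost without any other library (up to 0.16) and with equal library totals (0.068), and 11.9% of its exon bases lie under a gene on the opposite strand. FGF1 was at 20.5 ± 13.6 and 4.48 ± 2.1 (log2 change -1.88, adjusted p = 0.058), and FGF18 at 175 ± 120.4 and 239 ± 15.7 (0.65, adjusted p = 0.27).

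DDR2, a receptor for fibrillar collagen (ENSG00000162733, chr1:162631373-162787400, plus strand), was measured at 6369, 7470.4 and 1833 in 2D and at 2233, 1783 and 1928 in 3D. Replicates 1 and 2 of 2D were well above all other libraries, and 2D replicate 3 lay among the 3D libraries. The means were 5224 ± 2988 and 1981 ± 229.9 (log2 change -1.17, SE 0.46, 95% confidence interval -2.22 to -0.11, adjusted p = 0.096), which did not pass. Without 2D replicate 3 the log2 change was -1.81 (adjusted p = 8.3e-05), and DESeq2 on the recovered reads of all libraries gave an adjusted p of 0.0086. The fibrillar collagen gene COL3A1 was at 444, 506 and 1749 in 2D and 6445, 3521 and 7148 in 3D. PDGFRB, a mesenchymal receptor for platelet-derived growth factor, was at 61.9, 56.6 and 536 in 2D and 223, 981 and 246 in 3D (log2 change 1.60, 95% confidence interval -0.40 to 3.60, adjusted p = 0.21, or 2.65 and 0.0057 without 2D replicate 3).

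For FGFR4, PDGFRB and DDR2, then, 2D replicate 3 lay within the range of the 3D libraries while the other 2D libraries lay outside it on the same side. These were 3 of the 22 receptors, and 15.5% of all tested genes had this pattern. Without 2D replicate 3, 6 receptors were higher (FGFR3, FGFR4, FLT4, MERTK, MST1R and PDGFRB) and 9 lower (the 7 called with all libraries, DDR2 and RYK), 15 of 22, while 45.6% of all genes passed. Without 2D replicate 1 there were 0 receptors higher and 4 lower (9.93% of all genes in either direction), and without 2D replicate 2 there were 0 and 5 (11.5%). Leaving out 3D replicate 1 gave 0 higher and 4 lower (8.38%), leaving out 3D replicate 2 gave 1 and 7 (19.1%), and leaving out 3D replicate 3 gave 0 and 3 (7.63%). With both 2D replicate 3 and 3D replicate 2 left out, an alternative chosen after seeing the data, 7 were higher and 9 lower (58.0% of all genes). On all 6 libraries, edgeR called the same receptors, 1 higher and 7 lower (23.4% of all genes), and DESeq2 called these and DDR2 lower (30.3%).

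**Figure D3:**
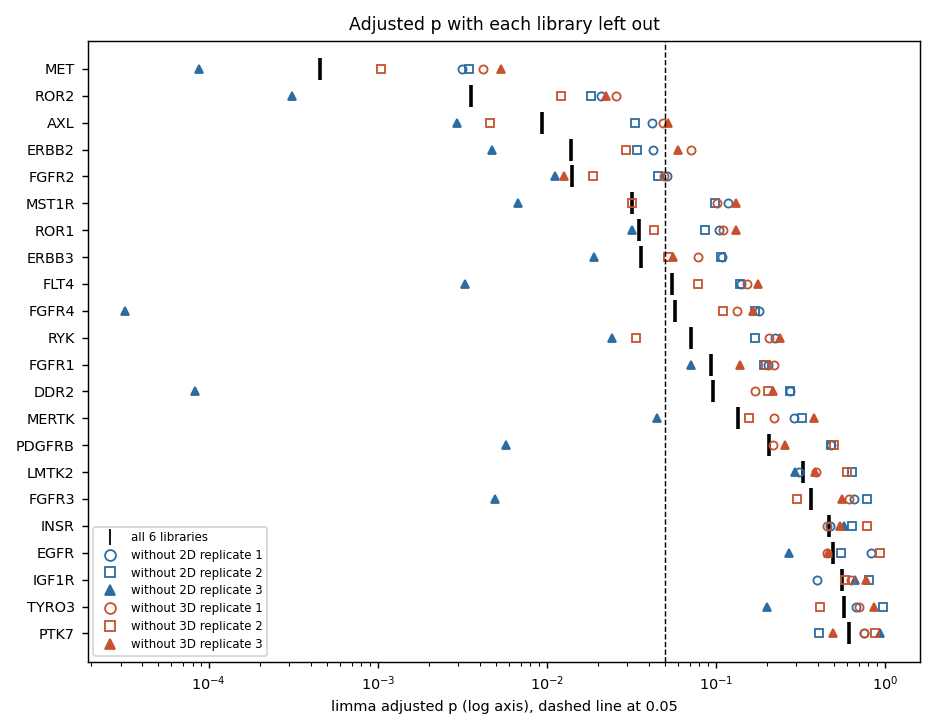
Limma adjusted p (log axis) of each tested receptor with all 6 libraries (bar) and with each library left out (symbols), with a dashed line at 0.05. All symbols of MET and ROR2 lie left of the line, while FGFR4, DDR2, PDGFRB, FGFR3, FLT4 and MERTK cross it only without 2D replicate 3.

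Both receptors of insulin-like ligands were measured at similar levels in the 2 cultures. IGF1R was at 3342, 4241 and 4217 in 2D and 3683, 3588 and 3368 in 3D (log2 change -0.14, 95% confidence interval -0.52 to 0.24, adjusted p = 0.56). INSR was at 526 to 633 and 433 to 572 (log2 change -0.19, 95% confidence interval -0.62 to 0.23, adjusted p = 0.47). LMTK2, a membrane kinase of the lemur family, was at 1729, 2231 and 1991 in 2D and 1801, 1422 and 1791 in 3D (log2 change -0.25, 95% confidence interval -0.65 to 0.16, adjusted p = 0.33). The libraries of the 2 cultures overlapped for each of these receptors, and the intervals bound the log2 changes but do not show equality.

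FLT4, the receptor for VEGFC and VEGFD in lymphatic endothelium, was barely detected. It was at 1.91, 0 and 11.3 in 2D and 24.1, 12.6 and 29.9 in 3D, from 13 and 68 reads. Every 3D library lay above every 2D library, but 2D replicate 3 and 3D replicate 2 were close, and the log2 change of 2.74 did not pass (95% confidence interval 0.71 to 4.76, adjusted p = 0.055). It passed without 2D replicate 3 (3.69, adjusted p = 0.0033). VEGFD rose from 4.14 ± 2.25 to 19.6 ± 6.28 (log2 change 2.05, SE 0.56, limma adjusted p = 0.032), a call lost in the fits that left out replicate 1 of either culture, or replicate 3 of 3D. Of the 6 endothelial markers tested, 1 was called higher in 3D (PECAM1, at 0, 0 and 9.25 in 2D and 94.6, 154 and 101 in 3D) and 1 lower (ESAM, at 297 ± 44.2 and 168 ± 33.2), with a median log2 change of -0.43. The ESAM call held when 2D replicate 3 or 3D replicate 2 was left out and was lost in the other 4 such fits, with adjusted p up to 0.15. EGFL7, CDH5, VWF and ERG did not pass, and CDH5 was highest in 2D replicate 3 (268). The part of these markers in the FLT4 values was not tested.

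The 12 receptors near the floor had means of 0.309 to 3.89 normalised counts over the 6 libraries. They were KIT, the stem cell factor receptor of melanocytes, ERBB4, CSF1R, DDR1, NTRK2, the VEGF receptors FLT1 and KDR, the angiopoietin receptors TEK and TIE1, and ALK, LTK and ROS1. KIT had 1 read over the 3 libraries of 2D and 3 over those of 3D. DDR1, a collagen receptor of epithelia, had 2 and 4 reads. Whether reads of DDR1 were lost in mapping was not tested, so these counts need not reflect its expression. For 6 of the 12, both cultures were at or under 3 reads, and TIE1 in 2D and KDR and ROS1 in 3D had 0. The widest contrast was that of NTRK2, with 13 reads over the 2D libraries against 1 over the 3D libraries. The ratio of these reads, adjusted for library size factors, was 13.5, with an exact 95% interval of 2.03 to 575. That interval covers counting error only, no spread between libraries and no choice of the widest contrast. The normalised counts of NTRK2 were 3.81, 1.07 and 8.22 in 2D and 0.928, 0 and 0 in 3D. ALK had 2 and 8 reads (2D to 3D ratio 0.26, exact 95% interval 0.0269 to 1.30). ERBB4 had 12 and 11 reads, and CSF1R 7 and 15, with its highest value, 13.6, in 3D replicate 2. No test between the cultures was made for the receptors near the floor.

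Per exon length and depth (reads per kilobase of exon, scaled to 1e6 reads per library), AXL had the highest level among the receptors in 2D, at 28.3 ± 2.31, followed by DDR2 (26.4 ± 15.2), MET (25.9 ± 1.94) and ROR2 (20.9 ± 2.21). FGFR4 was next, at 15.7 ± 15.8, a mean set by 2D replicate 3, with IGF1R at 15.3 ± 2.35. The SDs of AXL, DDR2 and MET overlap, so their order is not resolved. The exon length is that of all annotated exons of a gene merged, 5154 bases for AXL and 13842 for FGFR1. It may exceed the length of the transcripts expressed, so places, sums and shares across receptors depend on it. In 3D the highest level was that of FGFR4, at 40.7 ± 4.82, well apart from IGF1R (15.1 ± 0.935), AXL (13.98 ± 4.39) and EGFR (13.3 ± 2.94), which overlapped each other. MET was in place 3 in 2D and in place 13 in 3D, at 5.70 ± 1.40, and DDR2 went from place 2 to place 6, at 11.0 ± 1.45. The levels of all receptors summed to 214, 232 and 237 in the 2D libraries and to 186, 190 and 190 in the 3D libraries, and FGFR4 made up 3.35%, 2.61% and 14.3% of the sum in 2D replicates 1, 2 and 3 and 21.6%, 19.0% and 24.0% in the 3D libraries. By family, the mean sums in 2D and 3D were 32.4 and 55.7 for the FGF receptors (21.6 in 2D without replicate 3), 30.6 and 14.5 for MET and MST1R, 34.3 and 21.5 for the TAM receptors, and 40.5 and 26.5 for the Wnt-binding receptors.

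**Figure D4:**
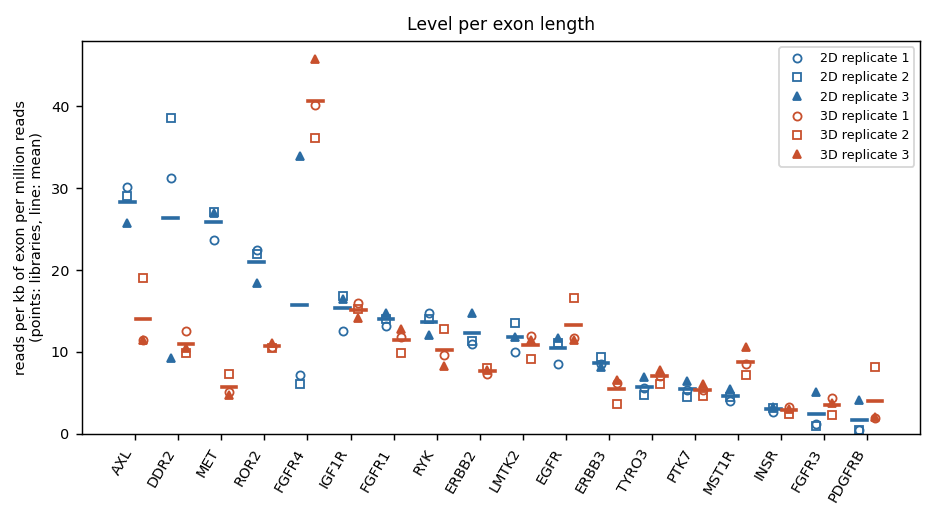
Level per exon length (reads per kilobase of exon, scaled to 1e6 reads) of the 18 receptors above the lowest levels, ordered by the 2D mean, with a point for each library and a line at the mean of each culture. FGFR4 has a mean of 40.7 in 3D, with 2D replicate 3 near the 3D libraries, and MET has means of 25.9 in 2D and 5.70 in 3D.

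Of 65 listed ligands, 52 had a row and 39 were tested, with 3 higher in 3D (TGFA, VEGFD and PGF) and 5 lower (BTC, FGF2, CSF1, BDNF and GDF15), 20.5% of those tested, and a median log2 change of -0.42. Of all tested genes 24.1% passed, 12.5% higher and 11.6% lower, with a median log2 change of -0.02. BDNF, the ligand of NTRK2, was measured at 2829.6, 2718 and 1105 in 2D and at 183, 196 and 187 in 3D (log2 change -3.43, SE 0.34, limma adjusted p = 0.0007). Its libraries were far apart between cultures while NTRK2 itself was near the floor. CSF1, the ligand of CSF1R, fell from 257 ± 63.8 to 65.9 ± 18.9 (log2 change -1.95, SE 0.31, adjusted p = 0.0047), also with its receptor near the floor. The calls of BDNF and CSF1 held with each library left out. GDF15, a stress-induced ligand of a RET co-receptor, fell from 4879 ± 3434 to 421 ± 149 (log2 change -3.14, SE 0.68, adjusted p = 0.015). PGF, a ligand of FLT1, rose from 28.5 ± 30.7 to 245 ± 209 with 487 in 3D replicate 2 (log2 change 3.28, SE 0.79, adjusted p = 0.021). The GDF15 call held in the fits that left out 2D replicate 3 or 3D replicate 2, and the PGF call in those that left out 2D replicate 3 or 3D replicate 1. Both were lost in the other 4 such fits. The number of ligands called was 3, 4 and 20 without 2D replicates 1, 2 and 3, and 3, 7 and 3 without 3D replicates 1, 2 and 3. Over all tested genes, the shares called in these fits, in the same order, were 9.93%, 11.5%, 45.6%, 8.38%, 19.1% and 7.63%. These shares stand beside the counts for the lists below as well.

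Of 19 listed co-receptors, 14 had a row and 11 were tested. Of these, 1 was higher and 2 lower (27.3%, against 24.1% of all tested genes, median log2 change 0.11). NRP1, which binds VEGF and semaphorins, fell from 276 ± 90.7 to 72.5 ± 22.2 (log2 change -1.90, SE 0.35, limma adjusted p = 0.0078). SDC2, a heparan sulfate proteoglycan, fell from 1177 ± 437 to 328 ± 24.3 (log2 change -1.78, SE 0.26, adjusted p = 0.0033). Both calls held with each library left out. LRP4, the agrin receptor that works with MUSK, rose from 644 ± 296 to 1197 ± 192 (log2 change 0.97, SE 0.30, adjusted p = 0.047), a call that held without 2D replicate 3 and was lost without any other library and with edgeR (0.055). The number of co-receptors called was 5 without 2D replicate 3 and 2 without any other library.

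Of 42 listed adaptors and proximal signalling genes, 37 had a row and 35 were tested. Of these, 4 were higher and 9 lower (37.1%, against 24.1% of all tested genes, median log2 change -0.33). The docking and exchange proteins called lower were GAB1, GAB2, IRS1, IRS2, SOS1, SOS2 and VAV2. The phosphatase gene PTPN11 and the transcription factor gene STAT3 were also called lower. With equal library totals, 5 adaptors were called higher and 6 lower. GAB2 fell from 2106 ± 476 to 418 ± 66.3 (log2 change -2.32, SE 0.22, limma adjusted p = 0.00063). Within the VAV exchange factors the directions were opposite. VAV2 fell from 4729 ± 723 to 1318 ± 180.1 (log2 change -1.84, SE 0.19, adjusted p = 0.00076), and VAV3 rose from 99.2 ± 9.64 to 476 ± 129 (log2 change 2.22, SE 0.25, adjusted p = 0.0011). The calls of GAB2, VAV2 and VAV3 held with each library left out. IRS1, the insulin receptor substrate, fell from 447 ± 143 to 131 ± 69.2 (log2 change -1.83, adjusted p = 0.013) and SOS1 from 1661 ± 425 to 856 ± 80.0 (log2 change -0.93, adjusted p = 0.018).

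The adaptors that rose were SHC3, PIK3R3, VAV3 and DOK3. SHC3, a SHC adaptor best known from neurons, rose from 30.6 ± 27.9 to 128 ± 16.5 (log2 change 2.37, limma adjusted p = 0.018), and DOK3, an inhibitory docking protein, from 33.3 ± 19.6 to 109.8 ± 40.3 (1.81, adjusted p = 0.034). PIK3R3, a regulatory subunit of PI3 kinase, rose from 264 ± 209 to 941 ± 178 (2.09, adjusted p = 0.015), and 16.3% of its exon windows of 75 bases also occur in other genes. The calls of SHC3 and DOK3 held without 2D replicate 3 and were lost without any other library. Those of IRS1, SOS1 and PIK3R3 held when 2D replicate 3 or 3D replicate 2 was left out and were lost without any of the other 4. The number of adaptors called was 3, 3 and 21 without 2D replicates 1, 2 and 3, and 3, 8 and 3 without 3D replicates 1, 2 and 3. Wherever this number was 3, the adaptors called were GAB2, VAV2 and VAV3. The calls of GAB1, IRS2, SOS2, PTPN11 and STAT3 were therefore lost in those fits, and they are less firm than those of GAB2 and VAV2.

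Of 33 genes listed as negative regulators, all had a row and 32 were tested. Of these, 4 were higher and 4 lower (25%, against 24.1% of all tested genes, median log2 change -0.16). The list also holds ADAM10, ADAM17, USP8 and GRB7, which can act in favour of receptor signalling. Its counts and median are therefore not those of inhibitors alone. SOCS2, a feedback inhibitor, rose from 302 ± 22.1 to 655 ± 35.2 (log2 change 1.12, SE 0.17, limma adjusted p = 0.0044), and GRB14, which binds the insulin receptor, from 28.7 ± 22.5 to 172 ± 30.8 (2.79, SE 0.50, adjusted p = 0.007). PTPRJ, a receptor phosphatase, fell from 5627 ± 930.4 to 2308 ± 58.2 (log2 change -1.27, SE 0.18, adjusted p = 0.0027). The calls of SOCS2, GRB14 and PTPRJ held with each library left out. LRIG1, a membrane protein that lowers ERBB receptors and MET, rose from 62.8 ± 32.0 to 236 ± 126 (1.88, adjusted p = 0.02), and LRIG3 from 199 ± 77.0 to 374 ± 43.0 (0.96, adjusted p = 0.04). Of the exon bases of LRIG1, 12.9% lie under a gene on the opposite strand, whose reads cannot be told apart there. RNF41, a ubiquitin ligase for ERBB3, fell from 2701 ± 1312 to 974 ± 77.2 (log2 change -1.32, adjusted p = 0.035).

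NEDD4L, also a ubiquitin ligase, fell from 744 ± 55.2 to 405 ± 45.0 (log2 change -0.88, limma adjusted p = 0.011), and the phosphatase gene PTPN1 from 2502 ± 232 to 1723 ± 57.5 (-0.53, adjusted p = 0.037). The NEDD4L call was lost when 2D replicate 2 was left out, and also when 3D replicate 3 was. The LRIG1 call held when replicate 3 of either culture was left out and was lost without any of the other 4 libraries, and those of LRIG3, RNF41 and PTPN1 held without 2D replicate 3 and were lost without any other library. The number of negative regulators called was 4, 3 and 17 without 2D replicates 1, 2 and 3, and 4, 5 and 4 without 3D replicates 1, 2 and 3.

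**Figure D5:**
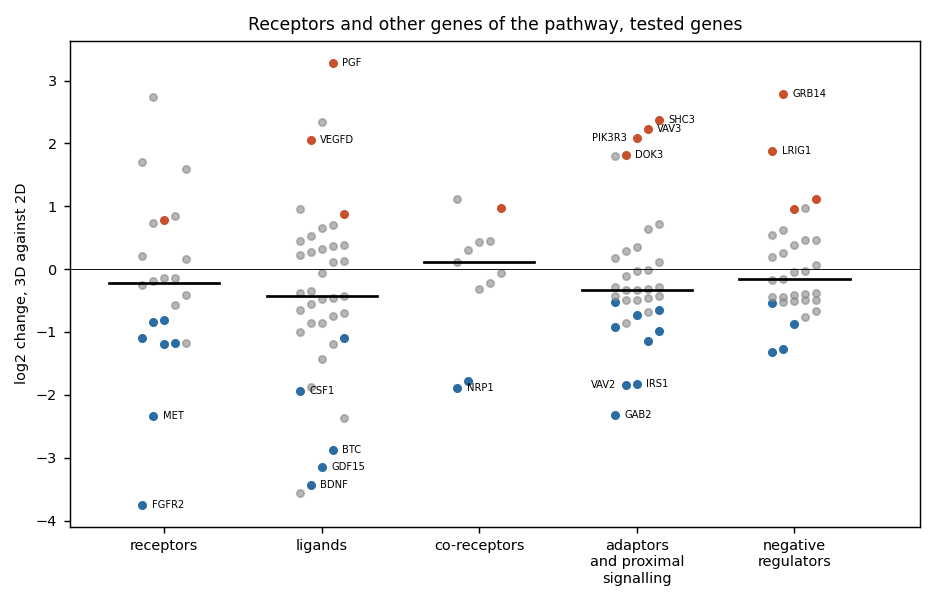
Estimated log2 change, 3D against 2D, of the tested genes among the receptors, ligands, co-receptors, adaptors and negative regulators, coloured where the adjusted p was under 0.05 (orange higher, blue lower), with a line at each list's median. The medians are -0.22, -0.42, 0.11, -0.33 and -0.16 in that order.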

How the data were processed

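Poly(A) RNA of 3 2D and 3 3D libraries of M14 cells was sequenced after Illumina TruSeq v2 preparation, per the labels' protocols. The submitters' processing notes name HISAT2, featureCounts 1.5.0, DESeq2 and GRCh38. The deposited normalised counts are a signal scale: reads divided by a size factor per library, tested on the file by recovering whole reads for 100% of values (tolerance 0.01). The file's 6 empty columns were not used. Of 26748 genes, 26506 had a symbol and 26702 a GENCODE 29 entry.

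The 2D and 3D libraries were compared by fitting log2(value + 1) in limma 3.58.1 under R 4.3.3, trend included, for genes with a mean of at least 10 over the 6 libraries, and Benjamini-Hochberg adjustment over all 15598. Fold changes on that scale understate those of low genes. edgeR 4.0.16 and DESeq2 1.42.0 on the recovered reads, other pseudocounts, filters and scalings, a replicate block and each library left out were alternatives. On simulated data for this comparison (15598 genes, 200 changed), limma recovered 24% of changes of log2 size 1 and 83% of size 2, with 1 unchanged gene called. The simulated noise was independent between genes, with no library set apart and fewer genes changed than were called in the data. These figures therefore need not hold for the data.

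The receptors and gene lists were chosen with earlier results of these data known. Described with every library value were receptors that passed, those with a mean of at least 1000 in either culture, and others where libraries disagreed, chosen after their values were seen. From the other lists, up to 4 genes with the smallest p in each direction were given with values, plus tested ligands of receptors that passed. These and the tested receptors are the named genes followed under the alternatives. The adaptors GAB1, IRS2, SOS2, PTPN11 and STAT3, named by their call only, and the cell type markers are not among them. Exact intervals and read floors cover counting error only.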

Additional observations from a re-analysis of the deposited data

How the results depend on the processing

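The counts of genes called depended most on which library was left out. With each library left out in turn, the number called ran from 1190 to 7111 over all genes, from 0 to 6 for receptors higher and 3 to 9 for receptors lower, from 3 to 20 for ligands, 2 to 5 for co-receptors, 3 to 21 for adaptors and 3 to 17 for negative regulators, the highest value in each case without 2D replicate 3. Without both 2D replicate 3 and 3D replicate 2, an alternative chosen after seeing the data, they were 9041 for all genes, 7 receptors higher and 9 lower, 23 ligands, 6 co-receptors, 23 adaptors and 24 negative regulators. The number of receptors higher was 1 with all libraries, and it was 2 with a pseudocount of 10 and with no filter on low values, and 3 with equal library totals. Replicate numbers did not pair the libraries (correlation of deviations -0.08, -0.14 and 0.04 for numbers 1, 2 and 3), and with a replicate block the number of all genes called was 3222, with 3 receptors higher (FGFR4, FLT4 and MST1R) and 6 lower, 8 ligands, 4 co-receptors, 10 adaptors and 7 negative regulators. Among the named genes the block lost the calls of ROR1 (adjusted p = 0.079), VEGFD (0.062) and PTPN1 (0.09). Of 873 values for the 55 named genes under the alternatives, 742 kept direction and side of the threshold, 97 lost the call, 33 gained it and 1 reversed: the log2 change of PTK7, which ran from -0.29 (without 2D replicate 2) to 0.073 (without 2D replicate 3 and 3D replicate 2). The cause was not tested. Depth limits the receptors under 10 normalised counts, for which no test was made, and FGFR2, ROR1, MERTK and FLT4, which rest on few reads.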
